A study of Homo sapiens with 12 samples.

Results

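The BCL2 family genes described here are the 10 named regulators of the mitochondrial pathway of apoptosis BCL2, BCL2L1, MCL1, BCL2A1, BAX, BAK1, BCL2L11, BBC3, PMAIP1 and BID, found by symbol among 57820 gene identifiers. Of these 10, 9 had enough reads to be tested, among 16060 genes tested in all. RNA with poly(A) tails was sequenced from TE10 and Kyse410, established human lines of esophageal squamous cell carcinoma, stably infected to express an shRNA against UHRF1 (shUHRF1) or a scramble control. UHRF1 recognises hemimethylated CpG sites after replication, recruits the maintenance DNA methyltransferase and also ubiquitinates histones. The 4 groups, TE10 shUHRF1, TE10 scramble, Kyse410 shUHRF1 and Kyse410 scramble, had 3 libraries each. All 12 carry a viral construct, no uninfected cells were analysed here, and the labels do not give the number of hairpins or clones, a time after infection or whether the 3 libraries came from separate cultures. The tests can therefore rest on technical spread alone.

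The family sets whether the outer mitochondrial membrane stays intact. Antiapoptotic members hold the effectors BAX and BAK1 in check; when the effectors are freed they form pores that release cytochrome c, which starts the caspase cascade. BH3-only proteins, among them BIM (BCL2L11), PUMA (BBC3), NOXA (PMAIP1) and BID, respond to stress and either neutralise the antiapoptotic members or activate the effectors. Squamous carcinomas are known to lean on MCL1 and on BCL-XL, the main product of BCL2L1, for survival. The counts give RNA per gene, so splice forms such as BCL-XL and BCL-XS are summed, and protein, cell death and DNA methylation were not measured in these files. In such bulk RNA, fewer cells with a transcript and less of it per cell cannot be told apart.

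Each library had between 7857662 and 12005229 gene reads. Levels are CPM, a gene's reads relative to the reads of its library, scaled by the trimmed mean of M-values (TMM), and a gene was called where edgeR's quasi-likelihood test gave an adjusted p under 0.05 over all genes tested. UHRF1 itself lay at 42.9% of the control level in Kyse410 shUHRF1 and at 48.1% in TE10 shUHRF1, with no overlap between the groups in either line. Of 11 squamous epithelial markers, the sum ranged from 1420 to 1440 CPM in TE10 scramble and from 1540 to 1570 CPM in Kyse410 scramble. With the shRNA it ranged from 1290 to 1350 CPM in TE10 and from 1890 to 1980 CPM in Kyse410. The basal keratin gene KRT5 was at most 1.61 CPM in Kyse410 scramble, so this squamous marker is near 0 in that line. In TE10 it ranged from 66.5 to 68.6 CPM with the scramble and from 7.69 to 8.56 CPM with the shRNA. KRT13, a keratin of the upper squamous layers, went the other way, at 184 ± 4.83 and 314 ± 4.53 CPM in TE10, and stood at 886 ± 12.2 and 1070 ± 34.9 CPM in Kyse410. Of 10 squamous markers tested, 3 rose and 7 fell in TE10, and 7 rose and 2 fell in Kyse410. Of all genes tested, 38.8% were called in TE10 and 49.3% in Kyse410. The rises in TE10 were those of KRT13, CDH1 and EPCAM. Of 6 blood cell markers none reached 1 CPM in any group. Of 6 fibroblast markers 4 stayed under 1 CPM in every group, the others being COL1A1 and PDGFRB. Mean COL1A1 was 42.8 CPM in TE10 scramble, 51.2 in TE10 shUHRF1, 114 in Kyse410 scramble and 154 in Kyse410 shUHRF1. PDGFRB was at 3.6, 0.736, 5.8 and 3.47 CPM in the same order. The endothelial cadherin gene CDH5 ranged from 90.7 to 104 CPM in Kyse410 shUHRF1 and from 24.6 to 24.9 CPM in Kyse410 scramble, while VWF and KDR stayed under 1 CPM. CDH5 also rose in TE10, from 9.13 ± 1.75 CPM with the scramble to 14.1 ± 1.53 CPM with the shRNA. Of 4 endothelial markers 3 were matched, PECAM1 being the missing one. Mitochondrially encoded transcripts took 3.792 to 4.001% of gene reads in Kyse410 shUHRF1 and 2.298 to 2.427% in Kyse410 scramble. In TE10 they went the other way, with 4.955 to 5.728% in TE10 shUHRF1 and 5.947 to 6.049% in TE10 scramble. The part of these differences in the family's values was not tested beyond an alternative without mitochondrial transcripts, which left the called members unchanged in all 4 comparisons.

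Since UHRF1 acts on CpG sites, the promoter windows of the members were read from RefSeq (build GRCh38.p14), from 250 bases before to 50 bases after each listed start. Of the 10 members, 9 had a window, 14 windows in all; MCL1 had none. Shown are PMAIP1, whose RNA fell in both lines, BCL2, which fell in Kyse410, BBC3, which differed most between the lines, and BCL2A1, which had no read. They are written 5′ to 3′ on the gene's strand, with every CpG in capitals. The windows are chr18:59899746-59900045 (plus strand) for PMAIP1, chr18:63319720-63320019 (minus strand) for BCL2, chr19:47232618-47232917 (minus strand) for BBC3 and chr15:79971147-79971446 (minus strand) for BCL2A1.
PMAIP1: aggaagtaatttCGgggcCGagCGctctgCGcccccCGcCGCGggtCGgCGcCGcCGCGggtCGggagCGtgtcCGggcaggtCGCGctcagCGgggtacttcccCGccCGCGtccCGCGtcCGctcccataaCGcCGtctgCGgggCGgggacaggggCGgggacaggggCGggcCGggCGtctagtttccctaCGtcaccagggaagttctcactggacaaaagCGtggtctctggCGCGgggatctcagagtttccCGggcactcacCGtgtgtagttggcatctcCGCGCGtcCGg
BCL2: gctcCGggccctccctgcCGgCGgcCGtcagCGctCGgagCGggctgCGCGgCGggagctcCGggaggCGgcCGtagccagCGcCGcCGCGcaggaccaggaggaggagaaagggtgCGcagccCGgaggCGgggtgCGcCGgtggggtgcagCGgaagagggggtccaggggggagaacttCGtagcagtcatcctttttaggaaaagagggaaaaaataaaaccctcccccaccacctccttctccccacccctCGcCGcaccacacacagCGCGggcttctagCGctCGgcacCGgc
BBC3: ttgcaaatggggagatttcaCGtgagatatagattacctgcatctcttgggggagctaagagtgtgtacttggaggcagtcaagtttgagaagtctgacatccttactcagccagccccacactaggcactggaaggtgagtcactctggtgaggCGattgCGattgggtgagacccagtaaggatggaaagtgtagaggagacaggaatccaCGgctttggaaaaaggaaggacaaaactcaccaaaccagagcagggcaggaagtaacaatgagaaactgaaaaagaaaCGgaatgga
BCL2A1: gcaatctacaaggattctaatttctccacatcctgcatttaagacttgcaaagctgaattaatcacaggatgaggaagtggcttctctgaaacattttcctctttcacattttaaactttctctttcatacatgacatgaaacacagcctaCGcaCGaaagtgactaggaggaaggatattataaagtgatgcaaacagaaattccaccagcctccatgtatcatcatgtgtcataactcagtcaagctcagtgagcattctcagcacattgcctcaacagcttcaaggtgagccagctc

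The PMAIP1 window held 42 CpG, a number reached by 5.85% of 35116 RefSeq promoter windows of the same length and by 9.39% of the windows of tested genes. The BCL2 window held 31, reached by 20.7% of all windows and by 32.9% of those of tested genes. The BBC3 window held 5 and the BCL2A1 window 2, where the median over all windows was 14 and over those of tested genes 25. The remaining members ranged from 6 CpG in 1 of the 5 BID windows to 39 in BCL2L11, with 38 in BAX and 7 in BAK1. Whether CpG number goes with a member's change was not tested. Of motifs searched on both strands, TGACG, the shorter form of the cyclic AMP response element TGACGTCA and contained in it, occurred in the windows of PMAIP1, BCL2, BAX and 1 of 2 of BCL2L1, and in 24.6% of all windows. The full TGACGTCA (1.85% of all windows) and the E2F sequence TTTCCCGC (1.63%) matched no member window, and TATAAA, the TATA box (11.5% of all windows), matched BCL2A1 and 1 window of BCL2L1. A match is a description of letters and not evidence of binding.

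The levels of the members spanned a wide range, and MCL1 and BCL2L1 led it in every group. Per kilobase of merged exons, which allows genes of different length to be compared, TE10 scramble had MCL1 at 151 ± 0.803 CPM per kb and BCL2L1 at 66.5 ± 0.869 (mean ± SD, n = 3). BAK1 followed at 24.6 ± 1.77 and PMAIP1 at 23.9 ± 1.02, with overlapping libraries, so their order is not resolved. BID at 11.7 ± 0.303 and BAX at 10.8 ± 0.784 CPM per kb overlapped as well. BCL2L11 was at 2.36 ± 0.232, BBC3 at 1.54 ± 0.384 and BCL2 at 0.503 ± 0.0394 CPM per kb. BCL2, the gene that names the family, was thus the lowest of the detected members in these cells. In Kyse410 scramble MCL1 lay at 224 ± 11.0 and BCL2L1 at 183 ± 2.04 CPM per kb, followed by PMAIP1 at 60.8 ± 0.685 and BAK1 at 38.8 to 41.2. BBC3 took the fifth place there at 14.5 to 16.8 CPM per kb, above BID (11.5 ± 0.736), BAX (7.62 ± 0.343), BCL2L11 (1.49 ± 0.197) and BCL2 (1.01 ± 0.243), and no neighbours in this order overlapped. With the shRNA the order in Kyse410 differed from the control in that BAK1 (44.3 ± 2.95 CPM per kb) stood above PMAIP1 (33.4 ± 1.23). BCL2A1, a short-lived antiapoptotic member of blood cells and melanocytes, had 0 reads in all 12 libraries, which allows at most 0.244 to 0.398 CPM per library (3 counts, covering counting error only).

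**Figure D1:**
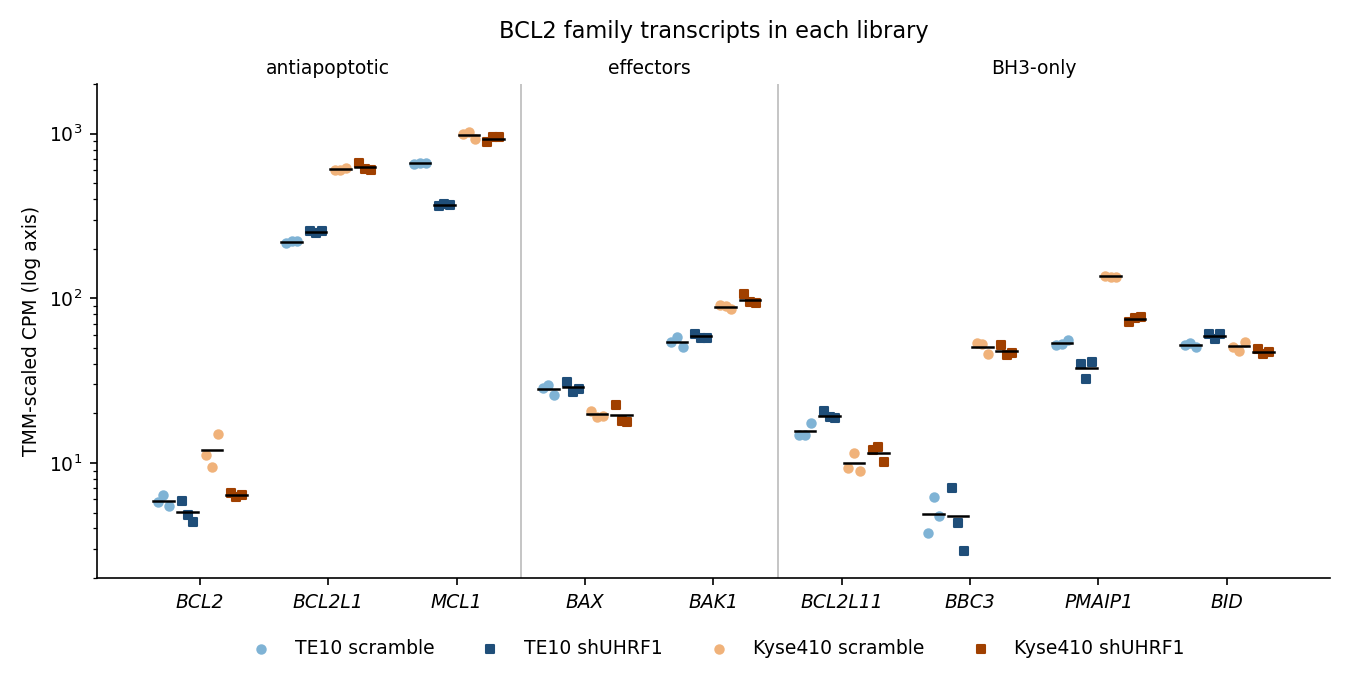
TMM-scaled CPM on a log axis for the 9 detected members, 3 libraries in each of 4 groups; circles are scramble and squares shUHRF1 libraries, and short lines are group means. MCL1 falls from 656 to 663 CPM down to 365 to 373 CPM in TE10, PMAIP1 is lower with the shRNA in both lines, and BBC3 separates the lines.

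In TE10, the comparison of shUHRF1 with scramble asked which members moved with UHRF1. MCL1, the short-lived antiapoptotic protein that holds BAK1 and BIM, fell to 56.0% of the control level, and PMAIP1, whose product NOXA binds MCL1 and promotes its degradation, fell to 70.4%. BCL2L1, which encodes BCL-XL, rose to 115% of the control. The BH3-only genes BCL2L11 and BID passed with small rises. Of 9 members tested, 3 rose and 2 fell, beside 38.8% of all genes tested that were called in either direction (18.8% higher and 20% lower). The members had a median log2 fold change of 0.04, against 0.001 over all genes.

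MCL1 lay at 656, 659 and 663 CPM in the 3 TE10 scramble libraries and at 365, 373 and 370 CPM in the 3 shRNA libraries. The groups were far apart and each was tight, with a log2 fold change of −0.84 ± 0.0379 (SE; adjusted p by edgeR = 6.49e-25). Over 13 alternatives the value stayed between −0.85 and −0.80. Across the 12 libraries, the genes with the pattern closest to MCL1 among 11994 with a mean of at least 5 CPM were MACF1 (Pearson r = 0.9929 of log2 CPM), CLIC4 (r = 0.9928) and ACSL3 (r = 0.9927). These coefficients describe 12 libraries that share the line and shRNA groups and are no test.

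BCL2L1 lay at 217, 221 and 223 CPM in TE10 scramble and at 255, 248 and 255 CPM in TE10 shUHRF1. All shRNA libraries were above all controls, by a log2 fold change of 0.20 ± 0.0418 (SE; adjusted p by edgeR = 0.00011). In the GENCODE 29 annotation the antisense gene ABALON covers 43.0% of the merged exon bases of BCL2L1, and reads from that strand cannot be told apart here. BCL2 lay at 5.81, 6.42 and 5.51 CPM in TE10 scramble and at 5.85, 4.86 and 4.38 CPM in TE10 shUHRF1, with overlap. Its log2 fold change was −0.23 (95% interval −0.64 to 0.18; edgeR adjusted p = 0.402), so a change of the size of that in MCL1 lies outside this interval.

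The effectors had no called change in TE10. BAX, the cytosolic effector that moves to mitochondria, lay at 28.4, 29.8 and 25.8 CPM with the scramble and at 31.2, 27.1 and 28.3 CPM with the shRNA, a log2 fold change of 0.04 (95% interval −0.16 to 0.25). BAK1, the effector resident in the outer membrane, was at 54.3 ± 3.92 and 58.7 ± 1.81 CPM, a log2 fold change of 0.12 (95% interval −0.02 to 0.25; edgeR adjusted p = 0.193). Both pairs of groups overlapped.

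Among BH3-only genes, PMAIP1 lay at 51.8, 52.4 and 56.0 CPM in TE10 scramble and at 39.95, 32.2 and 40.9 CPM in TE10 shUHRF1. The groups did not overlap, although replicate 2 of the shRNA group stood below the others, and the log2 fold change was −0.51 ± 0.0754 (SE; adjusted p by edgeR = 1.98e-07). BCL2L11, whose product BIM binds every antiapoptotic member, lay at 14.7, 14.9 and 17.5 CPM with the scramble and at 20.6, 18.9 and 18.7 CPM with the shRNA. The shRNA libraries were above the controls by a log2 fold change of 0.30 ± 0.123 (SE; adjusted p by edgeR = 0.0453), a call that sits at the threshold. It was lost without scramble replicate 1 (edgeR adjusted p = 0.14) or 2 (0.143) and without shRNA replicate 1 (0.102), 2 (0.0617) or 3 (0.0597), with DESeq2 (0.0656) and without a filter on low counts (0.106). The lncRNA gene MIR4435-2HG overlaps 10.9% of the exon bases of BCL2L11 on the opposite strand. BID, which caspase 8 cleaves to link death receptors to mitochondria, lay at 51.8, 53.5 and 50.8 CPM with the scramble and at 60.6, 56.7 and 60.5 CPM with the shRNA. It rose by a log2 fold change of 0.19 ± 0.07 (SE; adjusted p by edgeR = 0.0284), and this call was lost without scramble replicate 1 (edgeR adjusted p = 0.0663) or 3 (0.0962), without shRNA replicate 3 (0.0873) and without a filter (0.084). BBC3, encoding the p53-inducible PUMA, was low in TE10 at 2.92 to 7.0 CPM with the shRNA and 3.75 to 6.18 CPM with the scramble, and its log2 fold change of −0.04 had a wide 95% interval of −0.49 to 0.40.

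In Kyse410 the same comparison called fewer members, a count that rests partly on unsteady calls. Of 13 alternatives, the call was lost in 7 for BCL2L11 and 4 for BID in TE10, and in 3 for BAK1 in Kyse410. PMAIP1 fell to 55.0% of the control level and BCL2 to 53.6%, while MCL1 and BCL2L1 lay close to their controls. Of 9 members tested, 1 rose and 2 fell, beside 49.3% of all genes tested that were called (22.6% higher and 26.7% lower). The median log2 fold change of the members was −0.07, against −0.025 over all genes.

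PMAIP1 lay at 137.5, 134.6 and 135.3 CPM in the Kyse410 scramble libraries and at 71.6, 75.9 and 76.8 CPM in the shRNA libraries. These groups were tight and did not overlap, with a log2 fold change of −0.86 ± 0.0569 (SE; adjusted p by edgeR = 1.3e-18). BCL2 lay at 11.2, 9.49 and 15.1 CPM with the scramble, from 138, 93 and 159 reads. With the shRNA it lay at 6.57, 6.23 and 6.40 CPM, from 72, 76 and 59 reads. All shRNA libraries were below all controls, scramble replicate 3 being the highest, and the log2 fold change was −0.90 ± 0.159 (SE; adjusted p by edgeR = 4.06e-06). The call held in each of 13 alternatives, at −1.03 to −0.70. The genes closest to BCL2 in pattern over the 12 libraries were MEAF6 (r = 0.9642), NAXE (r = 0.9617) and DGAT2 (r = 0.9606).

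MCL1 lay at 999, 1017 and 927 CPM in Kyse410 scramble and at 896, 954 and 949 CPM in Kyse410 shUHRF1. The groups overlapped, and the level with the shRNA was 95.1% of the control (95% interval 90.5 to 99.9%; edgeR adjusted p = 0.0826). Without scramble replicate 3 the change of −0.11 was called (edgeR adjusted p = 0.0132). BCL2L1 was at 608 ± 6.76 CPM with the scramble and 627 ± 32.9 with the shRNA, a log2 fold change of 0.05 (95% interval −0.03 to 0.12). BAK1 lay at 91.2, 89.8 and 85.8 CPM with the scramble and at 105, 94.7 and 93.7 CPM with the shRNA, a rise of 0.14 ± 0.0569 (SE) on the log2 scale. That call (edgeR adjusted p = 0.0374) was lost without shRNA replicate 1 (0.251), the highest library, and without scramble replicate 2 (0.0614) or 3 (0.149). BAX (log2 −0.02, 95% interval −0.22 to 0.19), BBC3 (−0.09, −0.26 to 0.09), BCL2L11 (0.24, −0.03 to 0.50) and BID (−0.11, −0.24 to 0.03) were not called.

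**Figure D2:**
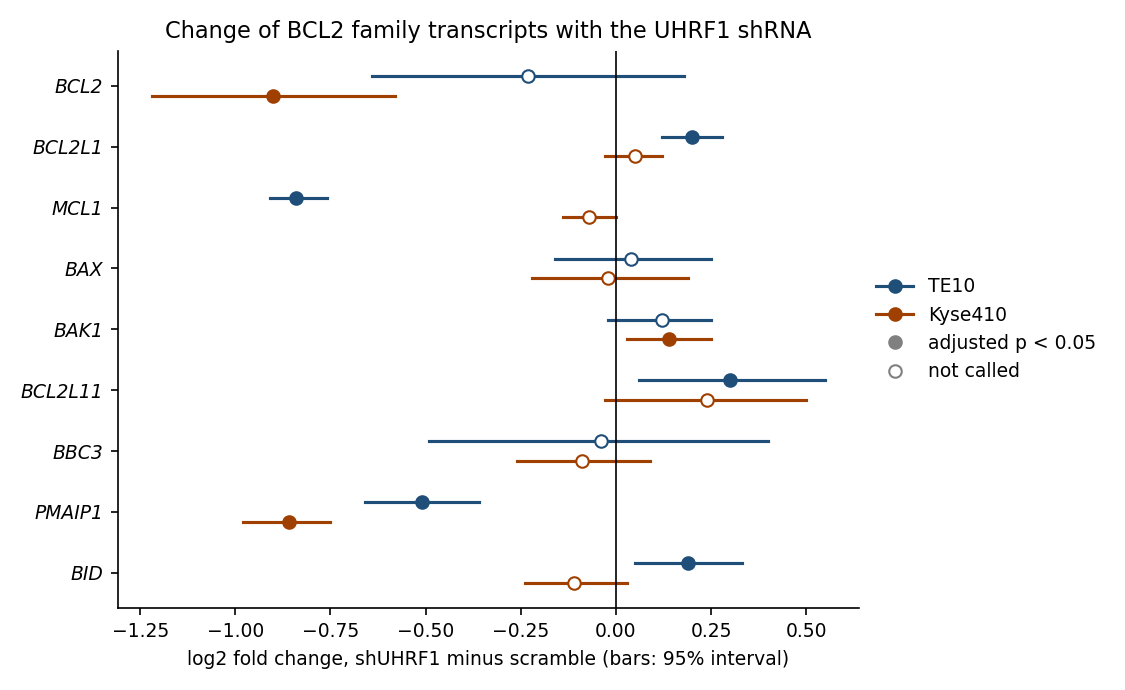
Log2 fold change of each tested member, shUHRF1 minus scramble, in TE10 (blue) and Kyse410 (brown), with 95% intervals; filled points passed an adjusted p of 0.05 in edgeR. MCL1 stands at −0.84 in TE10 and −0.07 in Kyse410, BCL2 at −0.23 and −0.90, and PMAIP1 is below 0 in both.

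Whether the response differed between the lines was tested as the change in Kyse410 minus the change in TE10. Of 9 members 5 were called, with a higher change in Kyse410 for 1 and a lower change for 4, beside 38.9% of all genes tested (19% higher and 19.9% lower). The difference for MCL1 was 0.76 ± 0.0517 on the log2 scale (SE; adjusted p by edgeR = 1.15e-17). PMAIP1 fell further in Kyse410, by a difference of −0.35 ± 0.095 (SE; adjusted p by edgeR = 0.00215). BCL2 differed by −0.67 ± 0.261 (edgeR adjusted p = 0.0361), BCL2L1 by −0.15 ± 0.0554 (edgeR adjusted p = 0.0232) and BID by −0.29 ± 0.0969 (edgeR adjusted p = 0.0126). These last calls were less steady. Over the 18 alternatives the BCL2 difference was not called in 7, namely with DESeq2, without a filter, and without TE10 scramble replicate 1 or 3, TE10 shRNA replicate 1, Kyse410 scramble replicate 3 or Kyse410 shRNA replicate 2 (adjusted p up to 0.164). The BCL2L1 difference was not called in 5, without a filter and without TE10 scramble replicate 1, Kyse410 scramble replicate 3 or Kyse410 shRNA replicate 2 or 3 (adjusted p up to 0.119). The BID difference was not called without Kyse410 scramble replicate 3 (0.0547) or shRNA replicate 2 (0.0614). For BAX, BAK1, BCL2L11 and BBC3 the difference was not called, with 95% intervals of −0.35 to 0.23, −0.16 to 0.20, −0.43 to 0.29 and −0.52 to 0.44, so differences within these bounds remain possible.

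MCL1 and PMAIP1 encode partners, and their reads were set against each other in each library, a ratio chosen after their values were seen. In TE10 scramble there were 12.7, 12.6 and 11.8 MCL1 reads for each PMAIP1 read, and in TE10 shUHRF1 9.15, 11.6 and 9.05. In Kyse410 scramble the ratio was 7.27, 7.56 and 6.85, and in Kyse410 shUHRF1 it was 12.5, 12.6 and 12.4. All TE10 shRNA libraries were thus below their controls, narrowly for replicate 2, and all Kyse410 shRNA libraries were above theirs. The ratio itself was not tested.

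Among the antiapoptotic members the make-up of the RNA changed in TE10. MCL1 took 69.2 ± 0.17% of their summed level per kilobase in TE10 scramble and 52.4 ± 0.623% in TE10 shUHRF1 (mean ± SD, n = 3), and BCL2L1 took 30.5 ± 0.171% and 47.3 ± 0.607%. In Kyse410 the MCL1 share was 54.9 ± 1.53% with the scramble and 52.9 ± 2.15% with the shRNA. The mean share of BCL2 was 0.267% or less in each group. The sum covers only BCL2, BCL2L1, MCL1 and BCL2A1. BCL2L2, from the other BCL2 family genes, is not in it. Its mean was 4.93 CPM per kb in TE10 scramble and 6.05 in TE10 shUHRF1. In Kyse410 it was 7.52 with the scramble and 8.33 with the shRNA. With the longest coding transcript as the length, the MCL1 share was 66.3% and 49.0% in TE10 and 51.5% and 49.6% in Kyse410, in the same order of groups.

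**Figure D3:**
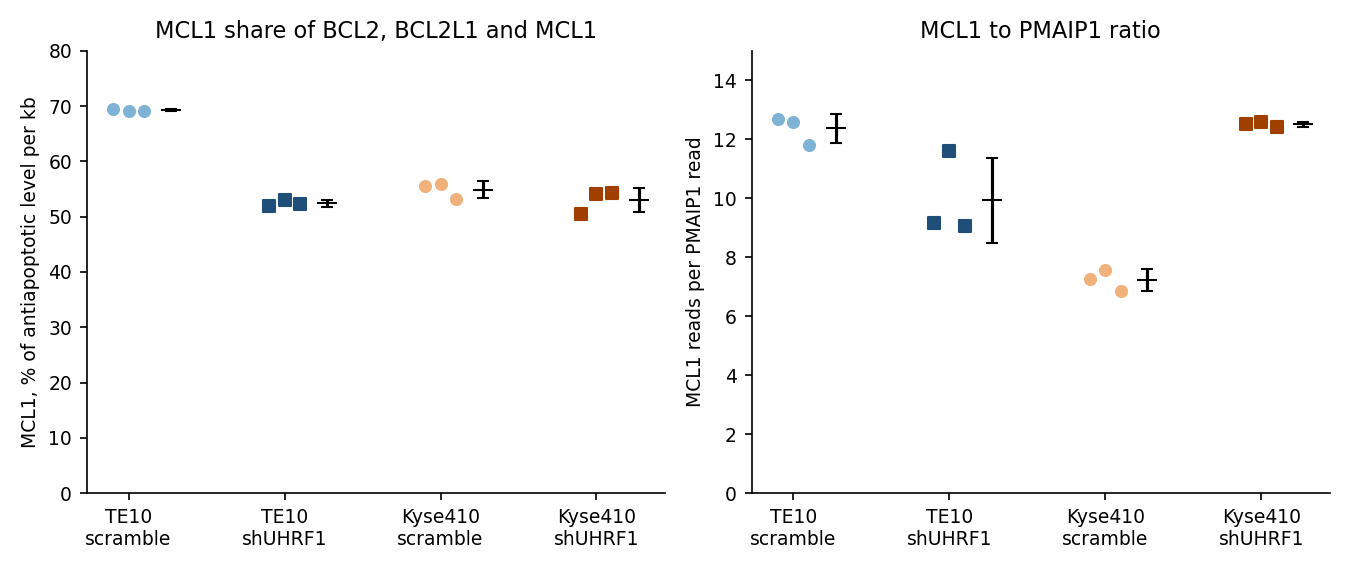
Left, MCL1 as a percentage of the summed level per kilobase of the antiapoptotic members; right, MCL1 reads per PMAIP1 read; points are libraries, and the bar beside them gives the mean ± SD of 3. The MCL1 share drops from 69.2% to 52.4% in TE10, and the ratio is lower with the shRNA in TE10 and higher in Kyse410.

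The scramble controls were compared between lines to describe the starting state. These libraries are also the controls of the knockdown comparisons, so the comparisons share data. Kyse410 had more RNA of all 3 detected antiapoptotic members and of BBC3, PMAIP1 and BAK1, and less of BAX and BCL2L11. Of 9 members 6 were higher in Kyse410 and 2 lower, beside 73.7% of all genes tested that were called (36.7% higher and 37.1% lower). The members' median log2 difference was 0.71, against −0.002 over all genes.

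BBC3 had the widest gap, with 53.5, 52.9 and 46.1 CPM in Kyse410 scramble and 3.75, 6.18 and 4.77 CPM in TE10 scramble. This is a 10.3-fold difference, a log2 value of 3.37 ± 0.136 (SE; adjusted p by edgeR = 2.07e-28). BCL2L1 was 2.76-fold higher in Kyse410 (log2 1.46 ± 0.0394), PMAIP1 2.54-fold (1.34 ± 0.0614), BCL2 2.02-fold (1.01 ± 0.168), BAK1 1.64-fold (0.71 ± 0.0631) and MCL1 1.49-fold (0.57 ± 0.0359). BAX was lower in Kyse410, at 20.7, 19.1 and 19.3 against 28.4, 29.8 and 25.8 CPM (log2 −0.50 ± 0.101), and BCL2L11 was at 9.92 ± 1.31 against 15.7 ± 1.55 CPM (log2 −0.67 ± 0.129). For these 8 members the 2 groups of libraries did not overlap, which held for 76.1% of all genes tested. BID was at 51.1 ± 3.27 and 52.0 ± 1.35 CPM (log2 −0.02, 95% interval −0.16 to 0.11; edgeR adjusted p = 0.752), so a difference between the lines was not detected for it.

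**Figure D4:**
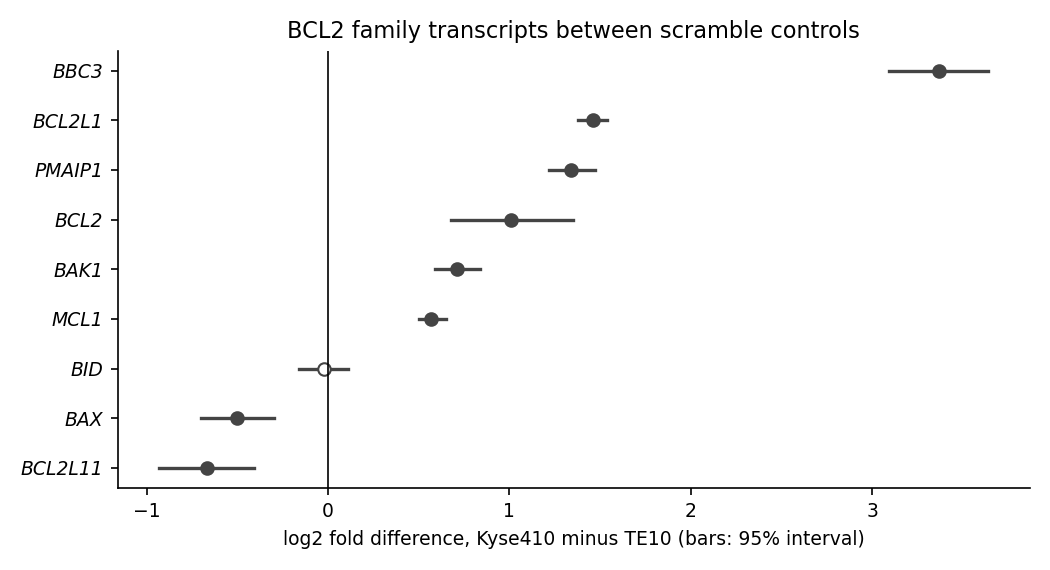
Log2 difference of each tested member between scramble controls, Kyse410 minus TE10, with 95% intervals; filled points passed an adjusted p of 0.05 in edgeR. BBC3 stands apart at 3.37, BID lies at −0.02, and BAX and BCL2L11 are below 0.

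The rest of the pathway was taken from 6 lists with 83 genes. Their counts are to be read against all genes tested, of which 18.8% rose and 20% fell in TE10 (38.8% called) and 22.6% rose and 26.7% fell in Kyse410 (49.3% called). Of 15 other BCL2 family genes 12 were tested, and 4 rose and 2 fell in TE10 while 3 rose and 3 fell in Kyse410. BCL2L12 rose in both lines, by 0.52 ± 0.0892 in TE10 and 0.28 ± 0.087 in Kyse410 on the log2 scale, the latter not called without scramble replicate 3 (adjusted p by edgeR = 0.074). BNIP3, a hypoxia-induced mitophagy receptor, fell by 0.58 (SE 0.0742) in TE10 and by 0.25 (SE 0.0707) in Kyse410. BOK, an effector-like member, rose by 0.56 ± 0.0959 in TE10. BNIP3L, a mitophagy receptor related to BNIP3, fell by 0.46 (SE 0.0997) in TE10 and rose by 0.41 ± 0.0747 in Kyse410. The BH3-only gene HRK, named after its values were seen, fell in Kyse410 from 4.55 ± 0.678 to 1.45 ± 0.0987 CPM (edgeR adjusted p = 1.94e-06). BIK, a BH3-only gene, was higher in Kyse410 than in TE10 among scramble controls by 1.16 ± 0.15, and BCL2L13 by 0.70 ± 0.0573. BCL2L10, BCL2L14 and BCL2L15 had at most 4 reads in a library and were not tested.

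Downstream of the mitochondria, 13 apoptosome and caspase genes were tested, of which 2 rose and 3 fell in TE10 and 5 rose and 3 fell in Kyse410, beside 38.8% and 49.3% of all genes called. CYCS, the cytochrome c gene, rose in TE10 from 218 ± 6.08 to 285 ± 19.8 CPM and fell in Kyse410 from 161 ± 12.1 to 102 ± 2.0 CPM, and the difference of −1.04 ± 0.0702 was called (edgeR adjusted p = 1.06e-17). CYCS, like the VDAC genes, has processed pseudogenes, so its count is uncertain. CASP9, the initiator caspase that the apoptosome activates, rose by 0.49 ± 0.106 in TE10 and by 0.28 ± 0.0591 in Kyse410, and was higher in Kyse410 than in TE10 controls by 2.5 ± 0.0817. APAF1, the scaffold of the apoptosome, fell by 0.43 (SE 0.109) in TE10. In Kyse410 the executioner caspase gene CASP6 rose by 0.52 ± 0.142 and DFFA, the inhibitor of the caspase-activated DNase, fell by 0.43 (SE 0.0639). DFFA also fell in TE10, by 0.28 (SE 0.06). DFFB, which encodes that nuclease, was lower in Kyse410 controls than in TE10 controls (−1.78 ± 0.214).

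Of 10 genes of inhibitor of apoptosis (IAP) proteins and their antagonists, 8 were tested, with 1 rise and 4 falls in TE10 and 1 rise and 3 falls in Kyse410, beside 38.8% and 49.3% of all genes called. BIRC3, an NF-kB-induced ubiquitin ligase, fell from 25.1 ± 1.97 to 19.9 ± 1.48 CPM in TE10 and from 287 ± 8.26 to 170 ± 11.8 CPM in Kyse410. BIRC6, a giant member, fell by 0.28 (SE 0.0512) and by 0.50 (SE 0.0458) on the log2 scale. BIRC2 fell by 0.37 (SE 0.0764) in TE10 and 0.27 (SE 0.0581) in Kyse410, and BIRC7 rose by 0.41 ± 0.0914 in Kyse410. Between controls BIRC3 was higher in Kyse410 by 3.52 ± 0.0629 and BIRC7 by 1.19 ± 0.112. Of 13 death receptor pathway genes 10 were tested, with 1 rise and 5 falls in TE10 and 3 rises and 6 falls in Kyse410, where 20% and 26.7% of all genes fell. FAS, a death receptor, fell in both lines, by 0.48 (SE 0.104) and 0.58 (SE 0.0892). CFLAR, which blocks caspase 8 at the receptor, fell by 0.27 (SE 0.0814) in TE10 and 0.20 (SE 0.0631) in Kyse410. TNFRSF10A, a receptor for the ligand TRAIL, rose by 0.54 ± 0.0743 in TE10 and fell by 0.26 (SE 0.0697) in Kyse410. TNFSF10, which encodes TRAIL, fell in TE10 from 3.87 ± 0.259 to 1.15 ± 0.544 CPM and in Kyse410 from 9.32 ± 0.297 to 4.77 ± 0.274 CPM. TNF fell in Kyse410 by 0.72 (SE 0.234), a call lost without scramble replicate 1 (adjusted p by edgeR = 0.06) or shRNA replicate 3 (0.105). Among controls TNFSF10 was higher in Kyse410 by 1.27 ± 0.192 and TRADD lower (−1.48 ± 0.208).

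Of 24 regulators of the members' transcription or turnover, 3 rose and 9 fell in TE10, and 9 rose and 13 fell in Kyse410, beside 38.8% and 49.3% of all genes called. The stress transcription factor genes known to act on PMAIP1 were measured beside it. ATF3 fell in Kyse410 from 345 ± 2.86 to 119 ± 2.03 CPM and DDIT3, which encodes CHOP, from 124 ± 4.18 to 66.6 ± 4.04 CPM. ATF4, named after its values were seen, fell there by 0.47 (SE 0.0402). In TE10 the log2 fold changes of ATF3 (0.08), DDIT3 (−0.05) and ATF4 (95% interval −0.09 to 0.09) were not called, although PMAIP1 fell there too. Their part in the change of PMAIP1 was not tested. Between controls ATF3 was higher in Kyse410 by 4.33 ± 0.0648 and DDIT3 by 3.07 ± 0.0799. TP63, the squamous lineage relative of p53, fell by 0.69 (SE 0.0626) in TE10. In Kyse410 TP63 rose by 0.14 ± 0.0548. That call was lost without scramble replicate 1 (adjusted p by edgeR = 0.108) or 2 (0.056) or shRNA replicate 3 (0.123). REL, an NF-kB subunit, fell by 0.64 (SE 0.13) in TE10 and 0.53 (SE 0.0897) in Kyse410, and E2F1 rose by 0.63 ± 0.0748 and 0.62 ± 0.0638. TP73, another p53 relative, fell by 0.62 (SE 0.134) in TE10 and rose by 0.78 ± 0.127 in Kyse410.

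Of 8 genes of outer membrane partners of the family, 5 rose and 0 fell in TE10, and 4 rose and 1 fell in Kyse410, where 18.8% and 22.6% of all genes rose. Their median log2 fold change was 0.17 in TE10 and 0.07 in Kyse410, against 0.001 and −0.025 over all genes. VDAC2, a channel that binds BAK1 and BAX, rose by 0.31 ± 0.0475 in TE10. BECN1, an autophagy protein that binds BCL2, rose by 0.30 ± 0.0654 in TE10 and 0.21 ± 0.0669 in Kyse410, and TSPO rose by 0.24 ± 0.0661 and 0.21 ± 0.0616. MFN1, a mitofusin, fell by 0.23 (SE 0.0806) in Kyse410, a call lost without scramble replicate 2 (adjusted p by edgeR = 0.0622) or 3 (0.0796) or shRNA replicate 3 (0.0525). In TE10 MFN1 rose by 0.18 ± 0.0745 (adjusted p by edgeR = 0.0492). That call was lost with DESeq2 (adjusted p = 0.0551) and in several other alternatives. The BECN1 call in Kyse410 was lost without scramble replicate 3 (0.0546). Among controls, VDAC3 (−1.21 ± 0.0563) and the fission gene DNM1L (−0.95 ± 0.0506) were lower in Kyse410.

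**Figure D5:**
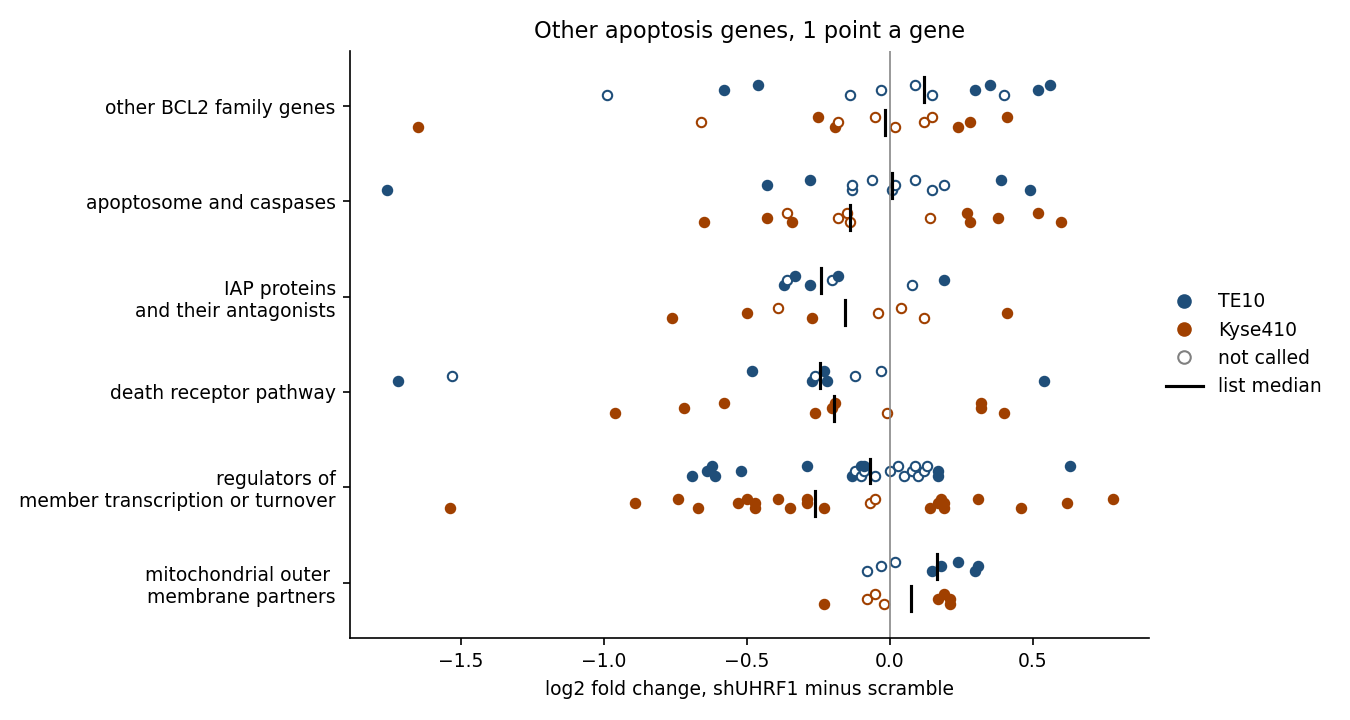
Log2 fold change, shUHRF1 minus scramble, of each tested gene in 6 lists of other apoptosis genes, in TE10 (blue) and Kyse410 (brown); filled points passed an adjusted p of 0.05 in edgeR and black ticks are list medians. The median of the regulators is −0.26 in Kyse410 and −0.07 in TE10, and that of the outer membrane partners 0.17 in TE10.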

How the data were processed

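The deposited files hold raw counts of reads per gene, 1 file for each of 12 libraries, with HTSeq's counters of unassigned reads at the end. Per the submitters' processing notes the tools were bcl2fastq 2.19, HISAT2 2.1.0, HTSeq 0.9.1 and DESeq2, with the build GRCh37.p13; neither the annotation nor the strand setting is given in the sources used here. Counter rows stayed out of the totals (42.88 to 44.66% of reads had no feature and 1.38 to 1.98% were ambiguous). Symbols were matched for 52339 of 57820 identifiers; the symbol of UHRF1 was entered by hand from its Ensembl number. Merged exon lengths came from GENCODE 29 (GRCh38), another build, so they are approximate.

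Genes were kept by edgeR's filterByExpr (16060) and scaled by TMM, and the 12 libraries entered 1 quasi-likelihood model with group means (edgeR 4.0.16 with limma 3.58.1, R 4.3.3). The SE is the log2 fold change divided by the square root of F, and 95% intervals use the fit's total degrees of freedom. Benjamini-Hochberg adjustment ran over all 16060 genes. The pipeline was tested on simulated data. Alternatives were DESeq2 1.42.0, other scaling and filters, no mitochondrial transcripts, fits of only the groups compared, a replicate block and leaving out each library; running them on genes of the other lists was added after seeing the data. Tables and plots used Python 3.11.15.

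The members and lists were chosen with earlier results of these data known. All 10 members are named. From each other list the rule took up to 3 called genes with the largest change per knockdown comparison, where the line's mean reached 5 CPM, and up to 2 between controls.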

Additional observations from a re-analysis of the deposited data

Results flagged for a closer look

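The response of 5 of 9 members tested differed between the lines by a test of the difference itself (edgeR, adjusted p under 0.05), beside 38.9% of all genes tested. As Kyse410 minus TE10 on the log2 scale, the difference was 0.76 for MCL1, −0.67 for BCL2, −0.35 for PMAIP1, −0.29 for BID and −0.15 for BCL2L1. Of 18 alternatives, the call was lost in 7 for BCL2, in 5 for BCL2L1 and in 2 for BID. For MCL1 the 3 TE10 libraries with the shRNA were all below their controls, while the Kyse410 groups overlapped. For BCL2 the Kyse410 groups did not overlap and the TE10 groups did.

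The log2 ratio of MCL1 to PMAIP1 reads, chosen after the values of both were seen, moved by −0.32 in TE10 and by 0.79 in Kyse410. It restates the changes of these genes and adds no separate evidence. All 3 shRNA libraries were on 1 side of all 3 controls in each line. In TE10 the margin was narrow, with 11.6 in shRNA replicate 2 against 11.8 in scramble replicate 3. The difference between lines in this ratio was not tested.

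Among named genes of the other apoptosis lists, the same test of the difference was passed by 19 genes, beside 38.9% of all genes tested. The named genes had been picked for large called changes in a line or between controls, or after their values were seen. Their number is therefore no result about apoptosis genes as a set and is not comparable with that share. Over all tested genes of a list, the change was called higher in Kyse410 for 2 and lower for 2 of 12 other BCL2 family genes. It was higher for 3 and lower for 2 of 13 apoptosome and caspase genes, and for 1 and 2 of 8 IAP genes. For death receptor genes the numbers were 3 and 1 of 10, for regulators 5 and 11 of 24, and for outer membrane partners 2 and 3 of 8. These values compare changes with the shRNA and not levels. Named genes whose change was lower in Kyse410 than in TE10 were HRK (−2.04), ATF3 (−1.61), CYCS (−1.04), DDIT3 (−0.84), TNFRSF10A (−0.80), ATF4 (−0.47), BOK (−0.44), BIRC3 (−0.43), MFN1 (−0.41), VDAC2 (−0.39) and BIRC6 (−0.22). Those whose change was higher in Kyse410 were TP73 (1.40), BNIP3L (0.87), TP63 (0.83), BIRC7 (0.61), CASP6 (0.49), BNIP3 (0.32), DNM1L (0.25) and VDAC3 (0.22). The cell type markers KRT5 (3.29), CDH5 (1.34) and KRT13 (−0.50) passed it too. The difference was not called in 9 of 18 alternatives for CASP6, in 6 for VDAC3 and without TE10 shRNA replicate 3 for BIRC6 and BNIP3.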

How the results depend on the processing

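Of 513 member values under the alternatives, 464 kept their direction and their side of the threshold, 28 lost the call, 1 gained it and 20 changed sign, and each change of sign was in a value that was not called. The counts of genes called stayed within 1.5 times in all 57 cases. The falls of MCL1 and PMAIP1 in TE10 and of PMAIP1 and BCL2 in Kyse410, the 8 differences between scramble controls, and the rise of BCL2L1 in TE10, kept their call under each of the 13 alternatives.

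Without a filter on low counts, 1 member was called higher in TE10 and 2 lower in the difference between lines. Leaving out 1 library at a time gave 1 to 2 members called higher in TE10, 0 to 1 called higher in Kyse410 and 1 to 4 called lower in the difference. With the longest coding transcript as length, the MCL1 share was 66.3% and 49.0% in TE10 scramble and shUHRF1 and 51.5% and 49.6% in Kyse410, each further from the main value than 1 SD.

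Several of the values that changed sign were small. BAX in Kyse410 was 0.006 with only the groups compared, and BID between controls was 0.004 with DESeq2 and 0.005 with relative log expression size factors. Leaving out libraries gave −0.40 to 0.20 for BBC3 and −0.015 to 0.091 for BAX in TE10, −0.14 to 0.061 for BAX in Kyse410, and −0.073 to 0.016 for BID between controls. For the difference between lines it gave −0.031 to 0.078 for BAK1, −0.18 to 0.018 for BAX, −0.29 to 0.34 for BBC3 and −0.16 to 0.039 for BCL2L11. For the other named genes 1323 of 1371 values kept direction and call, 40 lost the call and 8 changed sign, all in TE10 and not called: ATF4 gave 0.022 with DESeq2 and with relative log expression, 0.0 with the replicate block and −0.023 to 0.032 without 1 library, ATF3 gave −0.01 to 0.17 and DDIT3 −0.12 to 0.072 without 1 library.

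The labels repeat replicate numbers but do not say that they pair libraries. Deviations of same-numbered libraries correlated at −0.031 to 0.12, and 1 of 9 pairs exceeded 0.1. Pairs with different numbers correlated at −0.169 to 0.112. With the replicate block the genes called numbered 6346 in TE10, 7993 in Kyse410, 6368 for the difference and 11651 between controls, and no call of a member changed. BCL2 and BBC3 had 22 to 55 reads a library in TE10.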
